A study of Mus musculus with 9 samples.

Results

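The cardiac T-box genes examined were Tbx1, Tbx2, Tbx3, Tbx4, Tbx5, Tbx18 and Tbx20, and 7 of the 3761 CHD7 peaks of cardiac progenitor (CP) cells were associated with them. A peak was a member when its midpoint fell in the regulatory domain of 1 of the 7 genes. This domain ran from 5 kb upstream to 1 kb downstream of the transcription start site (TSS) and was extended on each side to the same interval of the next protein-coding gene, or by up to 1 Mb. Of the 7 genes, 4 had at least 1 peak (Tbx2, Tbx3, Tbx4 and Tbx5) and 3 had none (Tbx1, Tbx18 and Tbx20). Peak1102 lay in the domains of both Tbx3 and Tbx5, so the 7 peaks formed 8 gene and peak pairs.

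CHD7 binding was mapped by CUT&RUN, in which an antibody directs a nuclease to the chromatin around a protein and the released DNA fragments are sequenced. The cells were wild-type mouse embryonic stem cells, derived from C57BL6 mice, that had been differentiated towards cardiomyocytes for 5 days. The 9 libraries comprised 3 biological replicates with anti-CHD7, 3 with control IgG and 3 of input, all wild type. The file analysed was a single list of peak positions for the anti-CHD7 replicates together, without read counts, signal or scores, so depth, replicate spread and the strength of each peak are unknown here. The list holds no expression values, and the identity of the cells could not be checked against marker genes.

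T-box genes encode transcription factors that share a DNA-binding domain, the T-box, and recognise a short sequence with the core AGGTGT. In the developing heart Tbx5 and Tbx20 promote chamber myocardium, Tbx2 and Tbx3 repress the chamber programme in the atrioventricular canal and conduction system, Tbx1 acts in the second heart field (SHF) and pharyngeal mesoderm, and Tbx18 marks the sinus horns and the proepicardium. Tbx3 with Tbx5, and Tbx2 with Tbx4, are neighbours that arose from an ancestral gene pair by duplication and have stayed linked in vertebrates. CHD7 is an ATP-dependent chromatin remodeller that slides nucleosomes.

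The DNA around the midpoint of each of the 7 peaks is given first, because a peak list without scores shows which sequence was recovered but not how strongly. Each line holds 300 bases of the + strand of GRCm38.p6, the assembly that mm10 carries. Capitals mark matches to the T-box core, AGGTGT, or ACACCT where the match is on the - strand. The first 4 peaks are at the Tbx3-Tbx5 locus on chromosome 5, and the last 3 are at the Tbx2-Tbx4 locus on chromosome 11.
peak1100, chr5:119342435-119342734: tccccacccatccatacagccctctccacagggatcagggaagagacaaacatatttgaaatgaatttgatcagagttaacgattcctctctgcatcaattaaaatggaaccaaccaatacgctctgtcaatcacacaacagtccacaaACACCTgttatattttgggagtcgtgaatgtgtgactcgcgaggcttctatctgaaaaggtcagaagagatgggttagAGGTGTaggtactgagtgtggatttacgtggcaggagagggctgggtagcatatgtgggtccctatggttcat
peak1101, chr5:119377317-119377616: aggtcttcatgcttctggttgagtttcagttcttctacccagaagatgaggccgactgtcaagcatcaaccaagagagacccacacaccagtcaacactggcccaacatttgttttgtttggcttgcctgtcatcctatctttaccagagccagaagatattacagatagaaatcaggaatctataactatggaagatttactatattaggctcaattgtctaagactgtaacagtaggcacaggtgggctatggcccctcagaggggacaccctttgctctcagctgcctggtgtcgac
peak1102, chr5:119706368-119706667: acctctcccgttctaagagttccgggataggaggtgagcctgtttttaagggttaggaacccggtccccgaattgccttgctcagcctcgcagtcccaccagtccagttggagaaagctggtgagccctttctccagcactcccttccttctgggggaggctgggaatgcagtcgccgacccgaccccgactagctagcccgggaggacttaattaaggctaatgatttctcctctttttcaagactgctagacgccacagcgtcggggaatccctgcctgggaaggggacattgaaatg
peak1103, chr5:119847832-119848131: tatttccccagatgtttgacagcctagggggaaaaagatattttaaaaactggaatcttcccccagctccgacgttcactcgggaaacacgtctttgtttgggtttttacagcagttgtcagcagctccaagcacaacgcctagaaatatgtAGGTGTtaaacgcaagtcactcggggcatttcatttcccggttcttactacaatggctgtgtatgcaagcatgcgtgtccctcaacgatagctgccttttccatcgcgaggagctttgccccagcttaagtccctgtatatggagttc
peak2433, chr11:85491946-85492245: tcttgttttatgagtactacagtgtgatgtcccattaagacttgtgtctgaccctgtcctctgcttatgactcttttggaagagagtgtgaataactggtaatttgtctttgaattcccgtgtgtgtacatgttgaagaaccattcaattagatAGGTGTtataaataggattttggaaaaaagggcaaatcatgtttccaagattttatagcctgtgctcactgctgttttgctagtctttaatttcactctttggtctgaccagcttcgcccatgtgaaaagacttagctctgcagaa
peak2434, chr11:85958590-85958889: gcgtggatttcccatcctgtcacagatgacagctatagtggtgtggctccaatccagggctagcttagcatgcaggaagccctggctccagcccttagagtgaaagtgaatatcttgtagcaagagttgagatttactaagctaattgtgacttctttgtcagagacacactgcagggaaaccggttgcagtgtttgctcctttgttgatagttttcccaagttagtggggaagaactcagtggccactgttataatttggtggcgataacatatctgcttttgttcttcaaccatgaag
peak2435, chr11:86023785-86024084: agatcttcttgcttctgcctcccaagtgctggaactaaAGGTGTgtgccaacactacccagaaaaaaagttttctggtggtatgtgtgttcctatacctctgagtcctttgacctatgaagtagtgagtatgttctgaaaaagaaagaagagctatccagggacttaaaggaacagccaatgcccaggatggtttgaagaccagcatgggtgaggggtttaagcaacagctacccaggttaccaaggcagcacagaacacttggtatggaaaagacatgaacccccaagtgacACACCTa

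The Tbx3-Tbx5 locus held 4 of the 7 peaks, and each was intergenic or intronic rather than at a promoter. Together the domains of Tbx3 and Tbx5 covered 1.44 Mb of chromosome 5 (118670669 to 120111464), and both genes are on the + strand with TSSs 164.0 kb apart. The 4 peaks gave 2.78 per Mb, with a Poisson 95% interval of 0.756 to 7.11 per Mb. Over chromosome 5 there were 227 peaks, or 1.495 per Mb (1.31 to 1.70). The interval of the locus included the rate of its chromosome, and such intervals cover counting error only.

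Tbx3 had 3 peaks in a domain of 1159.0 kb (118670669 to 119829662), the longest domain of the 7 genes. Its gene record spans 119670669 to 119684724. Peak1100 (119342199 to 119342971, 773 bp) and peak1101 (119377248 to 119377686, 439 bp) lay 328.1 and 293.2 kb upstream of the TSS and 34.9 kb from each other. Both were intergenic, and no protein-coding TSS of any transcript was closer to them than that of Tbx3. They were also associated with Med13l, a subunit of the Mediator kinase module on the other side of the interval, at 781.9 and 816.7 kb downstream of its TSS. Peak1102 (119706035 to 119707000, 966 bp) was the third, 35.8 kb downstream of the Tbx3 TSS and beyond the 3′ end of the gene. The next peaks outside the domain were 1405.2 kb upstream of the TSS and 177.3 kb downstream, and the latter is peak1103.

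Peak1102 was the only peak shared by a pair of cardiac T-box genes, and it was associated with no other gene. It lay between Tbx3 and Tbx5, 128.1 kb upstream of the TSS of Tbx5. The closest start of any Tbx3 transcript was 26.3 kb away, and the start of Tbx3os2, a long intergenic non-coding RNA, was 15.3 kb away. Its sequence had the highest CpG ratio of the 7 peaks, 0.493 observed over expected, above 88.8% of all 3761 peaks.

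Tbx5, the gene mutated in Holt-Oram syndrome and a marker of the posterior SHF and the venous pole, had 2 peaks in a domain of 439.8 kb (119671669 to 120111464). Its gene record spans 119832668 to 119885219. Besides peak1102, peak1103 (119847535 to 119848428, 894 bp) lay within the gene, in intron 6 and 13.3 kb downstream of the TSS chosen for Tbx5. This was the shortest distance of the 8 gene and peak pairs. Peak1103 was also associated with Rbm19, an RNA-binding protein of the nucleolus, 268.5 kb upstream of its TSS. No other peak was found within 457.2 kb upstream or 557.2 kb downstream of the Tbx5 TSS.

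**Figure D1:**
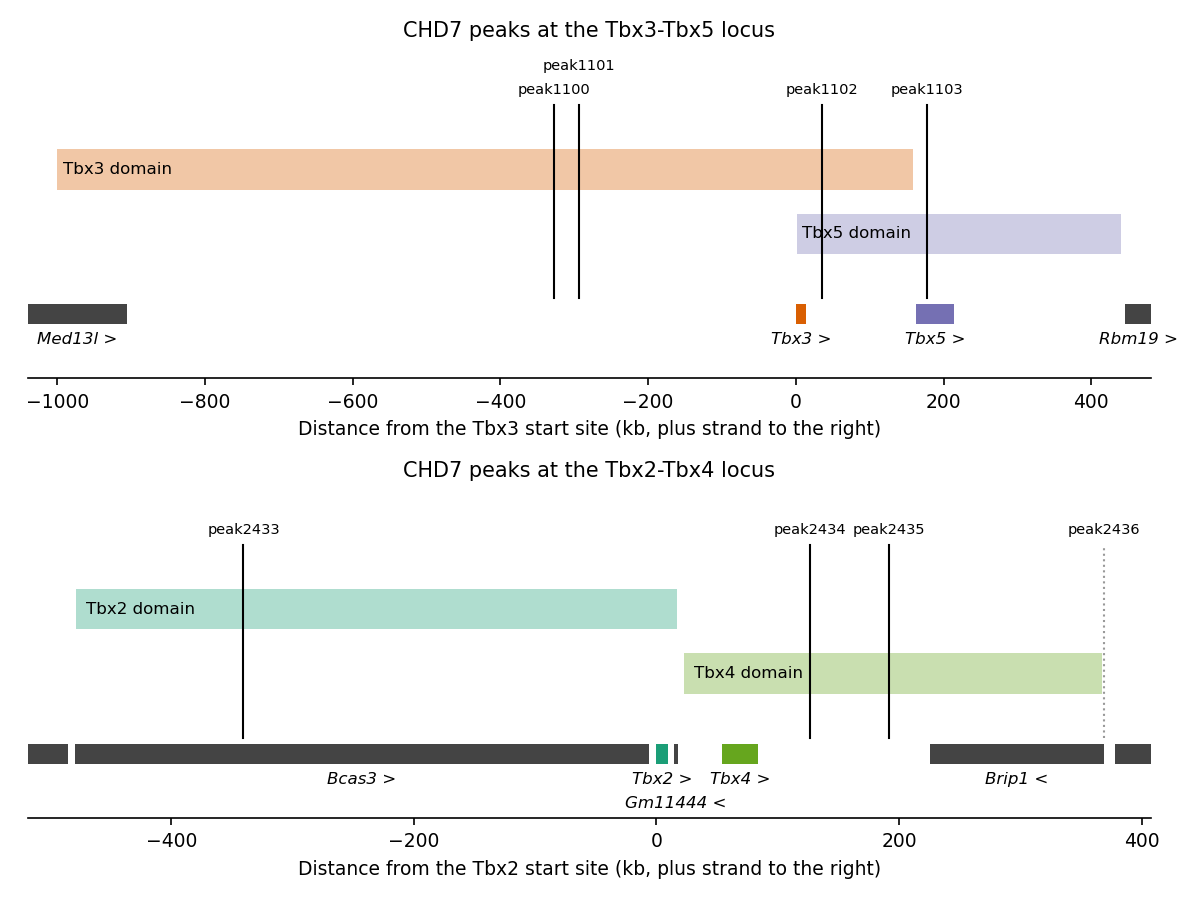
Positions of CHD7 peaks (vertical lines) at the Tbx3-Tbx5 locus (top) and the Tbx2-Tbx4 locus (bottom), in kb from the TSS of Tbx3 or Tbx2 with the + strand to the right. Pale bars are regulatory domains, boxes are protein-coding genes (T-box genes coloured, others dark), arrowheads give the strand, and the dotted line is peak2436, 1146 bp outside the domain of Tbx4. Peak1102 is the only line that crosses both pale bars, and no line falls between Tbx2 and Tbx4.

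The Tbx2-Tbx4 locus held the other 3 peaks, 1 on the Tbx2 side and 2 on the Tbx4 side, with none between the 2 genes. Both genes are on the + strand with TSSs 53.9 kb apart, and their domains covered 0.84 Mb between 85354212 and 86200192 on chromosome 11. The 3 peaks gave 3.57 per Mb (Poisson 95% interval 0.737 to 10.4), against 2.38 per Mb (2.12 to 2.67) for the 291 peaks of chromosome 11. Again the interval of the locus included the rate of the chromosome. The 4 peaks at Tbx3-Tbx5 and the 3 at Tbx2-Tbx4 gave overlapping intervals.

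Tbx2, a repressor of chamber genes in the atrioventricular canal and outflow tract, had 1 peak in a domain of 495.1 kb (85354212 to 85849332). Its gene record spans 85832551 to 85841948. Peak2433 (85491569 to 85492622, 1054 bp) lay 340.5 kb upstream of the TSS, the most distant of the 8 pairs, and inside intron 13 of the upstream neighbour Bcas3. It was associated with Bcas3 as well, 138.9 kb downstream of its TSS, and a processed transcript of Bcas3 starts 472 bp from its midpoint. The closest peak to the Tbx2 TSS was not a peak of Tbx2 by the rule. Peak2434, 126.2 kb downstream, lay beyond the neighbouring predicted gene Gm11444 and in the domain of Tbx4.

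Tbx4, known for its role in hindlimb, lung and allantois, had 2 peaks in a domain of 344.9 kb (85855333 to 86200192). Its gene record spans 85886422 to 85916097. Peak2434 (85958449 to 85959031, 583 bp) and peak2435 (86023348 to 86024521, 1174 bp) lay 72.3 and 137.5 kb downstream of the TSS, both intergenic and 65.2 kb from each other. Both were associated with Brip1 too, a DNA repair helicase, 242.5 and 177.3 kb downstream of its TSS. A further peak, peak2436, lay 314.9 kb downstream of the Tbx4 TSS and only 1146 bp outside the domain, so that the rule gave it to Brip1 alone. For Tbx3 the corresponding margin was 18319 bp, the distance from the domain edge to peak1103.

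Of the other protein-coding genes, those that shared most peaks with the cardiac T-box genes were their flanking neighbours. Med13l shared 2 of the 3 Tbx3 peaks, Brip1 both Tbx4 peaks, Bcas3 the Tbx2 peak, and Rbm19 1 of the 2 Tbx5 peaks. Bcas3, Rbm19 and Brip1 each bound a T-box domain. The Tbx3 domain instead ended at the 1 Mb limit, short of Med13l, whose own domain extended into it. In each case a shared peak follows from the rule. The list does not show which of the genes a peak acts on.

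Tbx1, Tbx18 and Tbx20 had no peak in their domains. Tbx1, a gene of the SHF and the pharyngeal arches, had the shortest domain of the 7, 121.5 kb on chromosome 16 (18499901 to 18621402) between Gp1bb and Rtl10. Its gene is on the - strand (18580979 to 18590671). The closest peak, peak3261, was 404.5 kb upstream of the TSS and was associated with Hira and Olfr164. A second, peak3262, lay 422.5 kb upstream. On the downstream side the next peak was 1439.9 kb away.

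Tbx18 (- strand, chromosome 9, 87702800 to 87731260) had no peak in a domain of 1061.7 kb (87260536 to 88322196), the second longest of the 7. The closest peak was 1154.6 kb downstream of its TSS and was associated with Pgm3 and Rwdd2a. The next upstream peak was 1891.9 kb away. The peak-free stretch around the TSS measured 3.047 Mb and held the TSSs of 23 protein-coding genes, including the neighbours Nt5e and Cep162.

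Tbx20 (- strand, chromosome 9, 24718138 to 24774303) had no peak in a domain of 383.1 kb (24701293 to 25084421). The closest peak was 1061.8 kb downstream of its TSS and was associated with Bmper and Npsr1. The next upstream peak was 2224.3 kb away. This stretch measured 3.29 Mb and held 13 protein-coding TSSs, and was the longest around any of the 7 genes. Over chromosome 9 there were 249 peaks, or 1.998 per Mb (1.76 to 2.26), so the chromosome itself was not poor in peaks. Stretches over 3 Mb were found around 17.8% of all 21911 genes. Those of Tbx18 and Tbx20 were longer than the stretches of 78.8% and 79.8% of these genes. A stretch was defined for 21057 genes, those with a peak on both sides. The rest stayed in the denominator, so each of these shares is somewhat low.

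**Figure D2:**
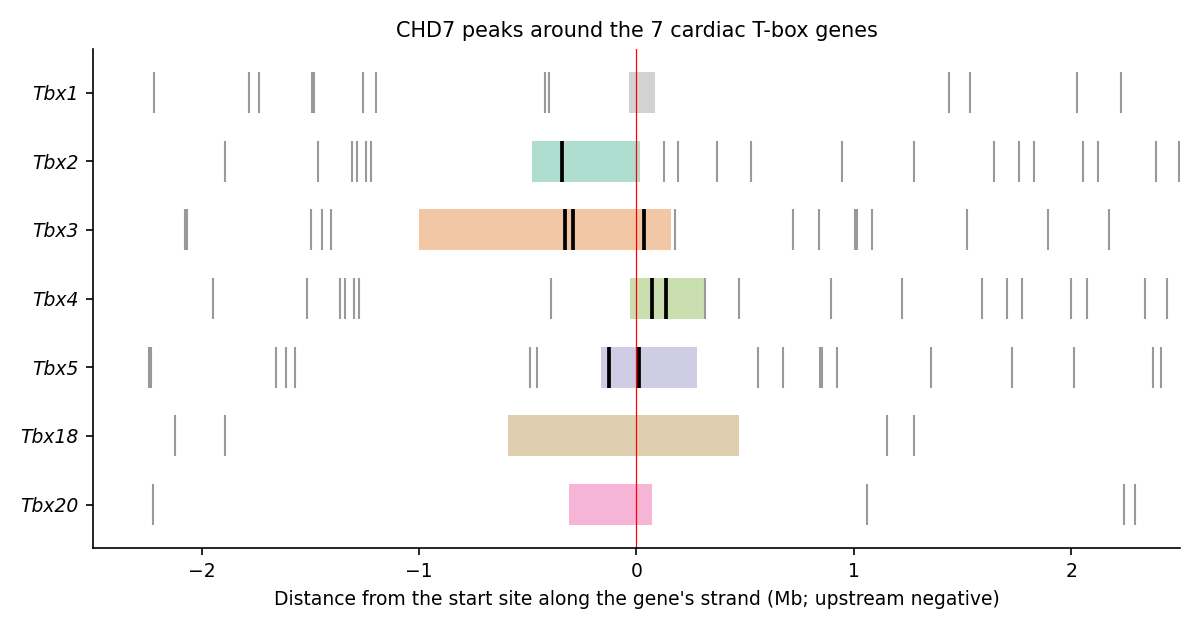
CHD7 peaks within 2.5 Mb of the TSS of each cardiac T-box gene, in Mb along the strand of the gene with upstream to the left. Pale bars are the regulatory domains, thick black lines are peaks inside the domain of that gene, thin grey lines are other peaks and the red line is the TSS. Tbx18 and Tbx20 have no line within 1 Mb, and the closest lines to Tbx1 are at 404.5 and 422.5 kb upstream.

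The share of cardiac T-box genes with a peak was read against all genes, because a long domain can collect more peaks than a short one. Among all 21911 protein-coding genes, 4978 had at least 1 peak (22.7%), against 4 of 7 cardiac T-box genes. The 7 genes were chosen with earlier results of these data known. The paper had reported both peaks of Tbx5 and listed none for Tbx1. The median domain was 439.8 kb for the cardiac T-box genes and 90.2 kb for all genes. Against genes whose domain was within 20% of the same length, the background was higher for the longer domains. Such genes had a peak in 48.0% of cases for the length of Tbx2, 40.5% for Tbx3, 43.9% for Tbx4 and 47.0% for Tbx5, the genes with a peak. The corresponding shares were 21.9% for Tbx1, 41.5% for Tbx18 and 45.5% for Tbx20, the genes without one. Read against these shares, having or lacking a peak was a common outcome at the lengths of Tbx2, Tbx3, Tbx4, Tbx5, Tbx18 and Tbx20, and 4 of 7 was close to this background. Over the union of the 7 domains, 3.85 Mb, the rate was 1.82 peaks per Mb (Poisson 95% interval 0.732 to 3.75), and the whole genome had 1.38 per Mb.

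The number of peaks per gene and the distance to the nearest peak separated the 7 genes further. At least 2 peaks were found for Tbx3, Tbx4 and Tbx5, and for 5.88% of all genes. Neither this share nor the next was matched on domain length. The domains of Tbx3, Tbx4 and Tbx5 were 1159.0, 344.9 and 439.8 kb, against a median of 90.2 kb over all genes. Peak1102 was counted for both Tbx3 and Tbx5. At least 3 were found for Tbx3 and for 1.75% of all genes, and the domain of Tbx3 was a long one (longer than 97.2% of all). The nearest peak of any assignment was 13.3 kb from the TSS of Tbx5, 35.8 kb for Tbx3, 72.3 kb for Tbx4, 126.2 kb for Tbx2 and 404.5 kb for Tbx1, followed by 1061.8 kb for Tbx20 and 1154.6 kb for Tbx18. The median over all genes was 165.9 kb, with quartiles at 58.3 and 446.3 kb. Tbx5 and Tbx3 were thus below the lower quartile, at the 7.91 and 17.2 percentiles of all genes. Tbx18 and Tbx20 were over 1 Mb from the nearest peak, as were 12.4% of all genes.

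**Figure D3:**
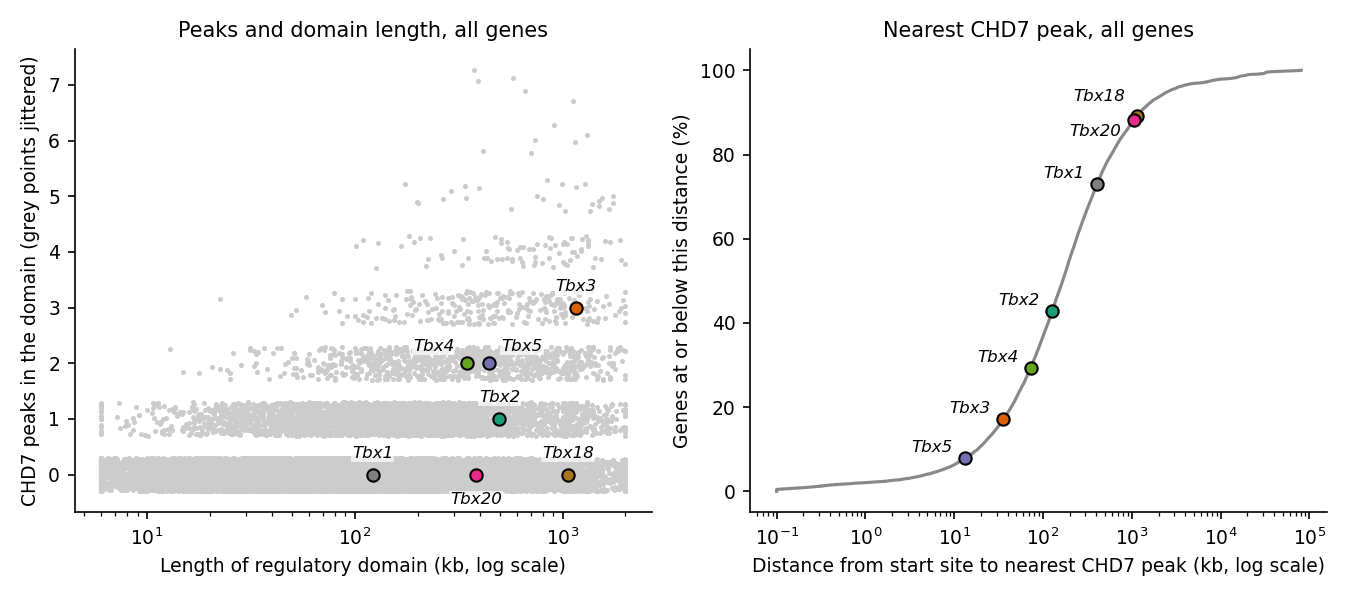
Left, the number of CHD7 peaks in the regulatory domain against domain length in kb (log scale) for all 21911 protein-coding genes (grey, jittered vertically) and the 7 cardiac T-box genes (coloured). Right, the cumulative share of genes (%) by distance from the TSS to the nearest CHD7 peak in kb (log scale), where Tbx5 is lowest at 13.3 kb and Tbx18 highest at 1154.6 kb.

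Counted with 1 TSS per gene, all 7 peaks were distal. The distance from the midpoint to the nearest such TSS had a median of 137.5 kb and ran from 13.3 to 328.1 kb. All 7 were over 10 kb from a TSS, against 70.1% of all peaks, and 4 of 7 were over 100 kb from it, against 20.1%. Within 5 kb there were 0 of 7, against 21.1% of all peaks. With every annotated transcript start of protein-coding genes counted, the median was 61975 bp against 13852 bp for all peaks, and peak2433 was then 472 bp from the start of a Bcas3 transcript. The midpoint was inside a protein-coding gene for 2 of 7 peaks (peak1103 in Tbx5 and peak2433 in Bcas3), against 53.2% of all peaks. Because the domains of these genes are long, a peak in them can lie far from a TSS more readily than the average peak, and the shares describe the 7 peaks only.

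In width and base composition the 7 peaks lay within the range of the list. Their widths ran from 439 bp (peak1101, wider than 8.99% of the list) to 1174 bp (peak2435, wider than 80.8%), and their median was 894 bp, compared with 703 bp in the whole list. The GC content ran from 42.9% for peak2433 to 50.3% for peak2435, with a median of 46.9% against 47.5%. The CpG ratio divided them into 4 peaks between 0.364 and 0.493 (peak1100, peak1102, peak1103 and peak2433) and 3 between 0.0836 and 0.171 (peak1101, peak2434 and peak2435), and the median of all peaks was 0.212. Repeat-masked bases made up 5.92% to 17.1% of each peak, with a median of 12.8% against 13.2%. Sequence was not shared between the peaks: among their 21 pairs, local alignment found none with at least 50 bp at 70% identity or more, and the longest aligned stretch was 18 bp. The linked pairs of genes therefore had no peak at the Tbx3-Tbx5 locus that aligned to a peak at the Tbx2-Tbx4 locus at this length.

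**Figure D4:**
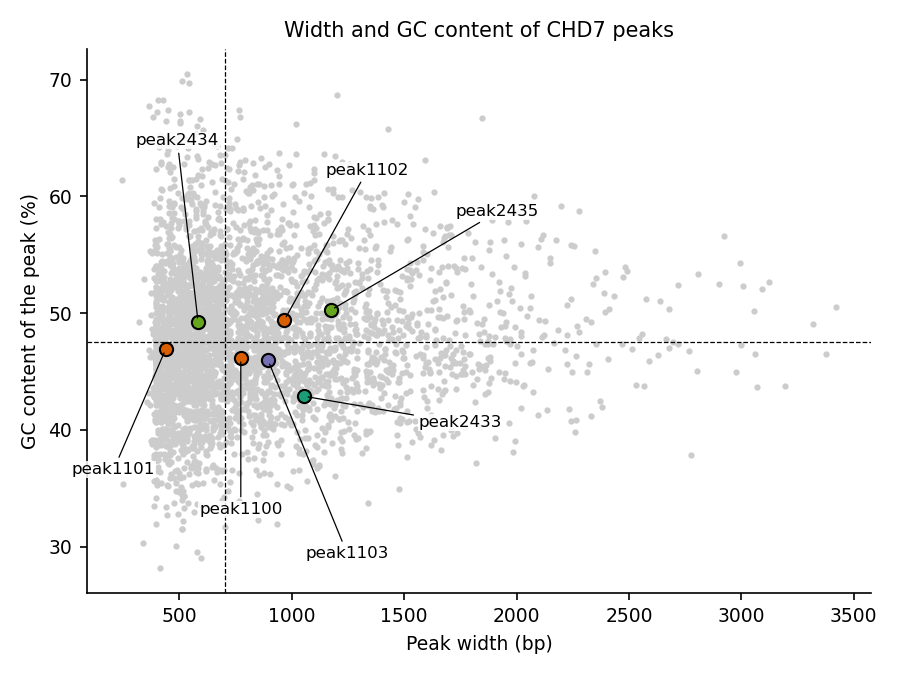
Width in bp and GC content in % of all 3761 CHD7 peaks (grey) and of the 7 peaks of the cardiac T-box genes (coloured by the cardiac T-box gene they were associated with, for peak1102 the closer of its pair: orange Tbx3, purple Tbx5, dark green Tbx2, light green Tbx4). Dashed lines are the medians of all peaks, 703 bp and 47.5%, and 5 of the 7 peaks are wider than the median.

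The T-box core AGGTGT, searched on both strands in the 300 bases around each midpoint, was found in 4 of the 7 peaks, with 6 matches in all. Peak1100 and peak2435 held 2 matches each, and peak1103 and peak2433 held 1 each. The same core was present in 16.2% of the windows of all peaks (609 of 3761). Over whole peaks the count stayed at 4 of 7, while the share of all peaks was 38.0%. In peak1100, peak1103 and peak2433 a match was centred 2, 5 and 7 bp from the midpoint. The second match of peak1100 lay 80 bp to the right. Those of peak2435 lay near the ends of the window, 109 bp to the left and 146 bp to the right. The midpoint is the middle of the listed interval and not a summit of signal. How many of all windows hold a match this close to it was not computed. Extended by its following bases the core read AGGTGTTA in both peak1103 and peak2433, at Tbx5 and Tbx2, AGGTGTTT and AGGTGTAG in peak1100, and AGGTGTGT for both matches of peak2435. The shares of all windows with these extended strings were not computed. None of the 6 continued to the longer consensus AGGTGTGA, which 1.22% of all windows held (46 peaks). Of the 6 matches, 1 in peak1100 overlapped an E-box (CANNTG) by 5 bp, and 1 in peak2435 lay in a masked repeat. A match is a string of letters in the peak, and binding of a T-box factor was not measured.

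For several other cores, searched on both strands, the count depended on the window. The GATA core AGATAA was in 0 of 7 windows and in 17.36% of all windows, and over whole peaks it was in 1 of 7, peak2433, against 36.8%. The NKX2 core AAGTG was in 2 of 7 windows, the Tbx4 peaks peak2434 and peak2435, against 54.1% of all windows. Within 200 bp it was in 1 of 7, against 39.8%, and over whole peaks in 5 of 7, against 83.7%, with peak1102, peak1103 and peak2433 added. The MEF2 consensus was in 1 of 7, peak2433, where it overlapped the T-box core by 1 bp, and in 2.79% of all windows. The TEAD core GGAATG was in 1 of 7, peak1102, against 17.1%. Over whole peaks MEF2 and TEAD were each in 2 of 7, against 9.55% and 39.1% of all peaks. The SP/KLF core GGGCGG and the CTCF consensus were in 0 of 7 windows, against 11.2% and 0.984% of all. An E-box was in all 7 windows and in 80.1% of all windows, but within 200 bp it was in 4 of 7, against 66.6%. All 3 NKX2 matches of peak2435 overlapped an E-box. With 7 windows, these counts are a description of the 7 sequences.

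**Figure D5:**
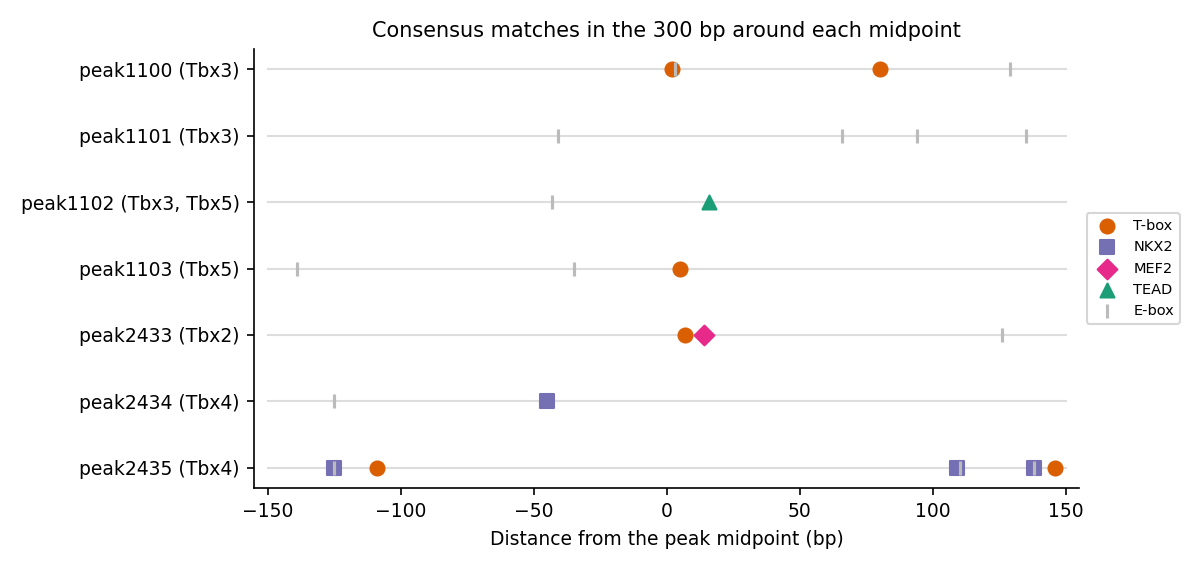
Positions of consensus matches in the 300 bp around the midpoint of each of the 7 peaks, in bp from the midpoint, with the associated cardiac T-box genes in brackets. A T-box match (orange circles) is centred within 7 bp of the midpoint in each of peak1100, peak1103 and peak2433. The other matches are 80 bp to the right in peak1100, and 109 bp to the left and 146 bp to the right in peak2435. T-box matches are absent from peak1101, peak1102 and peak2434.

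The remaining T-box family genes were counted in the same way, and with 10 genes the count describes this list only. Of 10 listed (T, Eomes, Tbr1, Mga, Tbx6, Tbx10, Tbx15, Tbx19, Tbx21 and Tbx22), only Tbx19, a pituitary regulator of pro-opiomelanocortin, had a peak, at 46.1 kb downstream of its TSS, where the background was 22.7% over all genes and 33.8% over genes with a domain within 20% of the median length of this list. Neither T nor Eomes, which act in the mesoderm from which CP cells arise, had a peak. The family list had 0.392 gene and peak pairs per Mb of domain, the 7 cardiac T-box genes 1.997 and all genes 1.48. The median domain of this list, 222.7 kb, was shorter than that of the cardiac T-box genes. The domains of Tbx6, Tbx10 and Tbx21 were shorter still, 14.9, 7.92 and 97.1 kb, so the share matched on the median length is too high for them. Those of Eomes, Tbr1, Tbx15 and Tbx22 were longer than the median, 346.1, 328.8, 738.3 and 403.2 kb, and for them the matched share may be too low.

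Of 10 genes for partners of T-box factors in the cardiac network, 6 had a peak, against 22.7% of all genes and 33.6% of genes with a domain within 20% of the median length of this list. The list was chosen with earlier results of these data known, and the paper had reported CHD7 peaks at Isl1, Hand1 and Hand2. The share is therefore partly set by the choice of genes and was not tested. Domains in this list ran from 93.1 kb for Smarcd3 to 1715 kb for Isl1. The share matched on the median length may thus be too low for the longest domains and too high for the shortest. The zinc finger factors Gata4 and Gata6 had 2 and 3 peaks, the closest 3.7 kb downstream and 12.2 kb upstream of their TSSs. The bHLH factors Hand1 and Hand2 had 1 and 2, and Isl1, the LIM homeodomain factor of the SHF, and Sall4 had 1 each. Nkx2-5, which encodes the partner of TBX5 and TBX20 at chamber genes, had no peak, and neither had Gata5, Mef2c or Smarcd3.

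Of 20 genes that are downstream of T-box factors or expressed with them in the heart fields, 12 had a peak. The background was 22.7% over all genes and 43.7% over genes whose domain was within 20% of the median length of this list. This list too was chosen with earlier results known, and the paper had reported CHD7 peaks at Fgf10, Wnt4, Osr1 and Foxf1. Its share is likewise partly set by the choice of genes. For Fgf10 and Osr1 the paper listed 2 peaks each, and the rule used here gave 3 each. Among genes for secreted factors, Bmp4 had 7 peaks, the closest 79.4 kb upstream of its TSS, and Fgf10 and Bmp2 had 3 each, the closest at 44.4 kb downstream and 12.2 kb upstream. Wnt2 had 2 and Wnt4 and Bmp10 1 each. The posterior SHF genes Osr1 and Foxf1 had 3 and 1, Gas1 had 1 peak 1.5 kb downstream of its TSS, and the sinus node regulator Shox2 had 1 at 588.3 kb downstream. Among genes of conduction and contraction, Gja1 had 2, the closest 600.6 kb from its TSS, and Cacna1g 1. Classical TBX5 targets of chamber myocardium, Nppa, Nppb and Gja5, had none, nor had Hcn4, Fgf8 or Aldh1a2. The median domain was 212.6 kb for the partners and 343.3 kb for the downstream genes, longer than the 90.2 kb of all genes, and the rates were 1.60 and 2.44 pairs per Mb. Domains of the downstream genes ran from 47.3 kb for Nppa to 1601 kb for Bmp2, so their matched share carries the same limit.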

How the data were processed

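CUT&RUN was performed on CP cells with anti-CHD7 and IgG, and the 9 libraries were 3 each of anti-CHD7, IgG and input. According to the methods, the authors trimmed reads with fastp 0.20.1, aligned them to mm10 with BWA 0.7.17.4, removed duplicates by molecular identifiers, called peaks with MACS2 2.1.2 for each sample against IgG, and kept peaks overlapping in at least 2 replicates (versions per the labels). The deposited list gives 1 start and 1 end position in bp per peak for the pooled anti-CHD7 replicates. The calling threshold is not given in the sources used here, and neither the reads nor the control libraries were analysed here. Peaks are numbered in list order.

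Starts were read as counted from 0 and are printed as counted from 1. For each gene of GENCODE M21, 1 TSS was taken, that of the protein-coding transcript with the best APPRIS level and, among equals, the longest spliced length. Distances are from the midpoint of the peak to this TSS. Local alignment used blastn 2.17.0. Percentiles are the share of peaks or genes below a value, and the CpG ratio is observed over expected. Rates have exact Poisson 95% intervals, and no test between groups was made. Named genes were the 7 members, every gene sharing one of their peaks, and the lists of T-box family, partner and downstream genes. Genes flanking a domain and those at the next peak beyond it were added after their values were seen. Some genes of the downstream list are not reported here by name. Members and lists were chosen with earlier results of these data known. Shares of genes matched on the median domain length of a list were added after the data had been seen. Alternatives were other TSSs, association rules, domain limits, peak sets and motif windows. Functions were tested on simulated data with planted peaks and motifs. Software was Python 3.11.15 (matplotlib 3.10.9, pysam 0.24.0, scipy 1.17.1, pandas 2.3.3, numpy 2.4.6) and samtools 1.23.1.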

Additional observations from a re-analysis of the deposited data

How the results depend on the processing

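The number of peaks at the cardiac T-box genes depended on how far a domain could reach. With the basal domain alone no peak was associated with them (0 peaks, 0 genes, 0 at each locus and 0.0 per Mb), nor with the other T-box family genes (0) or the partner and downstream genes (0), and 3.17% of all genes had a peak. With an extension of 100 kb, 3 peaks were associated, 2 at Tbx3-Tbx5 and 1 at Tbx2-Tbx4, and 3 cardiac T-box genes had a peak. In that setting 11 of the partner and downstream genes had a peak in place of 18, and 17.0% of all genes had one. With the single nearest gene, 11 partner and downstream genes and 14.2% of all genes had a peak, and the Tbx2 peak went to Bcas3, which left 3 cardiac T-box genes with a peak. This rule has no domain length and gave no rate per Mb. With peaks at least as wide as the median, the T-box family had 0 genes with a peak and all genes 13.1%. In an alternative chosen after seeing the data, every peak within 1 Mb of a TSS was counted with neighbours disregarded. It gave 17 peaks at the cardiac T-box genes, 9 at Tbx3-Tbx5, 6 at Tbx2-Tbx4, 7 T-box family genes, 28 partner and downstream genes and 87.6% of all genes, and Tbx1 had 2 peaks while Tbx18 and Tbx20 had 0. The start of the gene record, any overlap of 1 bp, merged peaks and, also added after seeing the data, leaving out predicted Gm genes gave 7 peaks and 4 genes. The T-box core was in 3 of 7 peaks within 200 bp and 4 of 7 over whole peaks, where 11.3% and 38.0% of all peaks held it. No paired analysis was possible because the list pools the replicates, and leaving out a replicate could not be run. Peak strength, depth and reproducibility of single peaks could not be examined, and 7 peaks limit the precision of every share.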
